A study of Mus musculus with 12 samples.

Results

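The histone cluster genes are the protein-coding genes of the mouse Hist1, Hist2, Hist3 and Hist4 loci, identified by a GENCODE M21 symbol that starts with Hist and a number. Of 55421 genes in the deposited table of read counts, 67 had such a symbol, and 20 of these reached at least 10 counts in 3 or more of the 12 libraries. These 20 are described here: 4 linker histone H1 genes, 4 H2A, 4 H2B, 3 H3 and 5 H4 genes. By locus, 13 of the 54 Hist1 genes on chromosome 13 were kept, 5 of the 10 Hist2 genes on chromosome 3, 1 of the 2 Hist3 genes on chromosome 11 and the 1 Hist4 gene on chromosome 6.

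Core histones H2A, H2B, H3 and H4 form the protein spool of the nucleosome, and H1 binds the DNA that enters and leaves it. Most cluster genes are transcribed when DNA is replicated, and their mRNA typically ends just after a conserved stem-loop, bound by the stem-loop binding protein SLBP, in place of a poly(A) tail. Some of these genes can also end at a poly(A) site further downstream, which lets cells that do not divide keep a supply. Microglia are the resident macrophages of the brain and divide little in the healthy adult tissue.

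The libraries came from FACS-sorted mouse brain microglia in culture, deprived of oxygen and glucose for 6 h (OGD, used to model stroke in a dish). Cells were taken either at the end of OGD or 24 h (1 day) later. Microglia labelled Cx3cr1EGFP, which carry the reporter used for sorting, are called WT, and those labelled Slc2a5-/-::Cx3cr1EGFP, which carry the same reporter and lack the fructose transporter gene Slc2a5, are called KO. Each genotype had 3 libraries taken after OGD (WT-OGD, KO-OGD) and 3 after the day of recovery (WT-recovery, KO-recovery). Both genotypes were labelled male, P35-P40 in the characteristics and P30 to P45 in the protocol, and no library without OGD was analysed here. For WT-recovery replicate 1 the title and library name gave recovery but the treatment field did not, and the title was followed. The labels do not state whether replicates were separate animals or cultures, so the p-values may reflect technical spread alone.

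Library totals were 31509859 to 45347118 counts after OGD and 9885259 to 19915479 after recovery, and mitochondrial transcripts took at most 18.4%, in WT-recovery replicate 1. For Slc2a5 the WT-OGD libraries held 45, 40 and 58 counts and the KO-OGD libraries 17, 4 and 17, a log2 difference of −1.75 ± 0.38 (SE; edgeR adjusted p = 0.0108), while each recovery library of either genotype held 0 to 2, too few to check the labels. Summed over 14 microglia markers, none at 0 throughout, the level was 2731 to 5577 CPM in every library, where CPM is a count scaled to the library's effective total. Neutrophil markers summed to 19.9 to 32.1 CPM after OGD and 371 to 827 CPM after recovery, with Ly6g at 0 in every library. Only 3 of these 10 markers passed the low-count filter, and 2 were called higher and 1 lower after recovery in each genotype. Monocyte markers summed to 58.4 to 178 and 506 to 1308 CPM, and oligodendrocyte lineage markers to 155 to 164 and 263 to 372 CPM. In bulk samples, a change in the number of cells of a type and a change in RNA per cell cannot be told apart. KO-recovery replicates 1 and 3 carried muscle, cartilage and connective tissue transcripts at 621 and 537 CPM over 17 genes, against 19.3 to 121 CPM in the other 10 libraries. The part of these shifts in the results below was not tested. Values without those 2 KO-recovery libraries are given where leaving them out changed the call of a member. That keeps 1 KO-recovery library, so for comparisons with KO-recovery only the log2 value is then given.

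To show the sequence element these genes are known for, the stem-loop with 6 bases on each side is printed for 6 of them, as DNA from the GENCODE M21 transcripts (build GRCm38), 5′ to 3′ on the transcript strand, with the 16-base stem-loop in capitals. The first 3 are the stem-loop members with the lowest fold changes from OGD to recovery, the next is the most counted member, and the last 2 are H4 genes with the base pairs of the stem that occurred in H4 genes and in no other class.
Hist2h2aa1: taaaaaGGCTCTTTTCAGAGCCacccac
Hist1h2bg: cccaaaGGCTCTTTTCAGAGCCacccat
Hist1h2ae: aacaaaGGCTCTTTTCAGAGCCattcac
Hist1h1c: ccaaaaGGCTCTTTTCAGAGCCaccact
Hist2h4: cctaacGGCCCTTTTTAGGGCCaaccac
Hist4h4: cacaaaGGCCCTTTTCAGGGCCcacaaa

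The stem-loop sequence was present in an annotated transcript of 46 of the 67 cluster genes (68.7%) and of 22 of 21834 other protein-coding genes (0.101%). In the 46 cluster genes it lay after the stop codon, whereas its position was not checked in the 22 others. Among the members 16 of 20 had it, 24 to 58 bases after the stop codon. All 12 such members of classes H1, H2A, H2B and H3 shared the form of the upper 4 sequences. In Hist1h1a, Hist1h2bc, Hist2h2be and Hist1h4k the pattern was not in the annotated transcript. The annotation of Hist1h4k ends at its stop codon, so it could not hold the pattern. The annotated length beyond it had a median of 996.5 bases (range 35 to 4884) in these 16 members and of 40 bases (3 to 1214) in the 30 other cluster genes with a stem-loop. More than 300 bases followed the stem-loop in 13 of 16 members and in 5 of 30 others.

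Many of these genes encode the same protein. By translation of the annotated coding sequence, all 13 H4 genes gave 1 identical protein, the 3 H3 members were identical to each other and to 5 further H3 genes, and Hist1h2bc, Hist1h2be and Hist1h2bg were identical. A median of 73.1% of the 50-base words of a member's transcripts occurred in no other annotated gene, against 35.2% for the 47 others, and Hist2h2aa1, Hist2h3c1, Hist2h3c2 and Hist1h4k were under 50%.

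The 20 members held 49039 counts over all libraries and the other 47 cluster genes held 701. Members made up 0.0109% to 0.0181% of a library. Hist1h1c (chr13:23738808-23740367, plus strand, 1 exon), an H1 gene, took 60.8% of the members' counts, the H2B gene Hist1h2bc 17.2% and the H2A gene Hist3h2a 8.64%. The 6 most counted genes took 94.0%. Per kilobase of exon and averaged over the 12 libraries, levels were 58.8 CPM per kb for Hist1h1c, 21.6 for Hist1h2bc, 5.96 for Hist3h2a, 5.58 for Hist1h2bg, 2.19 for Hist2h3c1, 1.69 for Hist2h2aa1, 1.42 for Hist1h4i and 1.14 for Hist2h2be. The other 12 lay between 0.137 for Hist4h4 and 0.590 for Hist1h3d. Inclusion turned on the count of the library that ranked number 3, which was 12 for Hist1h4k and 13 for Hist1h1a and Hist2h4, just inside. Just outside, it was 8 for Hist1h2bp and 9 for Hist1h2ad and Hist3h2ba. The rule used all 12 libraries, and 6 members met it through OGD libraries alone, with at most 7 counts in any recovery library: Hist1h1a, Hist1h1e, Hist1h2ae, Hist1h4d, Hist1h4k and Hist2h2aa1. A lower count after recovery is built into their choice, so their falls describe them and are no support for a fall of the set.

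**Figure D1:**
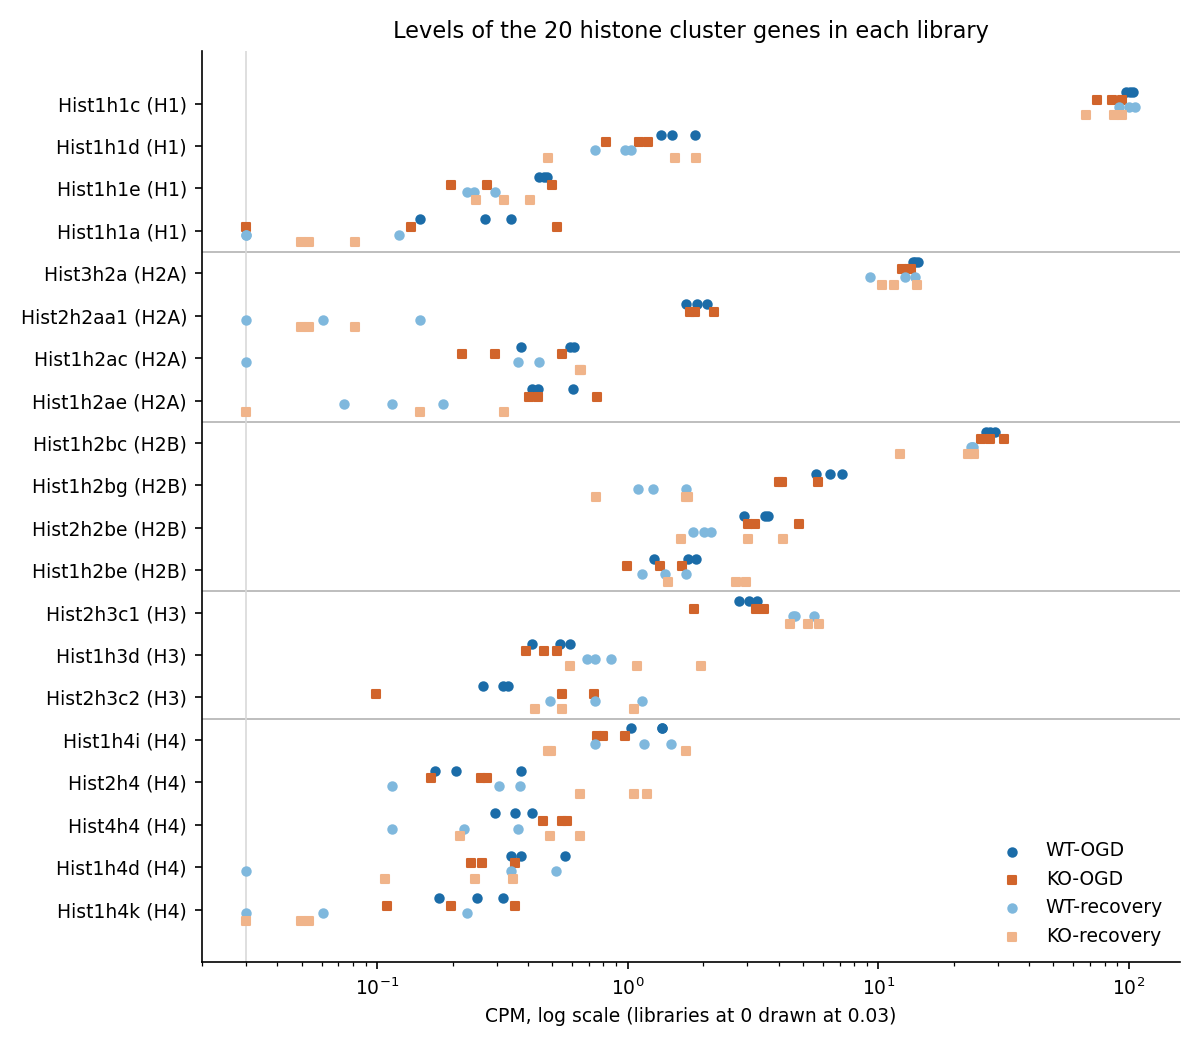
Levels of the 20 histone cluster genes in CPM on a log scale, 1 point per library, with libraries at 0 drawn at 0.03 and genes ordered by class. Hist1h1c lay between 67.3 and 106 CPM in every library, and Hist2h2aa1 fell from between 1.71 and 2.20 CPM after OGD to at most 0.148 CPM after recovery.

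Of the 20 members, 18 passed the filter on low counts and were among the 18842 genes tested. Hist1h1a and Hist1h4k were not. After recovery, 1 member was higher and 4 were lower than after OGD in WT, where 26.9% of all genes tested were called higher and 29.9% lower by edgeR's quasi-likelihood test with Benjamini-Hochberg adjustment at 0.05. In KO, 4 members were higher and 4 lower, against 29.3% and 29.6% of all genes. With both directions together, 56.8% of all genes were called in WT and 59% in KO, so the members' shares did not exceed the background. The median log2 fold change of the 18 was −0.36 in WT and −0.05 in KO, and that of all genes −0.03 and 0.00. The 18 include Hist1h1e, Hist1h2ae, Hist1h4d and Hist2h2aa1, which met the count rule only through OGD libraries. A fall was built into their choice, and Hist1h2ae and Hist2h2aa1 are among the members called lower in both genotypes.

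No gene of linker histone H1 passed the test with recovery. For Hist1h1c the WT-OGD libraries were at 97.2, 101 and 103 CPM and the WT-recovery libraries at 91.3, 106 and 100.1 CPM. The KO-OGD libraries were at 93.5, 74.7 and 85.3 CPM and the KO-recovery libraries at 87.5, 93.5 and 67.3 CPM. OGD and recovery libraries overlapped in both genotypes. Its log2 fold change from OGD to recovery was −0.02 ± 0.11 (SE) in WT and −0.03 ± 0.11 in KO, with adjusted p = 0.889 and 0.822 (edgeR). Hist1h1d, another somatic H1 subtype, had log2 fold changes of −0.79 ± 0.38 in WT (1.57 to 0.915 CPM) and 0.26 ± 0.36 in KO, and Hist1h1e had −0.83 ± 0.46 and −0.07 ± 0.43. Neither passed the test, although Hist1h1d in WT did in 4 of 19 alternatives: without KO-recovery replicate 3 (−0.80, edgeR adjusted p = 0.0217), without KO-recovery replicates 1 and 3 (0.0228), in the 6 WT libraries alone (0.0298) and with no low-count filter (0.0449). Hist1h1a, with 64 counts in all, had 32 counts over the WT libraries after OGD and 2 after recovery, a ratio of 0.199 after scaling (95% interval 0.0231 to 0.779, counting error only), and 27 and 3 in KO (0.237, 0.0461 to 0.772). It met the count rule only through OGD libraries, so these ratios are a description.

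Among the H2A members, Hist2h2aa1 (chr3:96245497-96246082, plus strand, 1 exon) fell furthest. The WT-OGD libraries held 70, 64 and 100 of its counts and the KO-OGD libraries 93, 54 and 68. Against this, the WT-recovery libraries held 0, 1 and 2 and each KO-recovery library held 1. Every recovery library was below every OGD library. The scaled count ratio of recovery to OGD was 0.0408 in WT (95% interval 0.00835 to 0.121) and 0.0298 in KO (0.00610 to 0.0883), where the interval covers counting error only. Adjusted p was 5.53e-07 in WT and 1.29e-07 in KO (edgeR), and both calls held in all 19 alternatives tried. Hist2h2aa1 met the count rule only through OGD libraries, so a fall was built into its choice. These values describe the gene and are no support for a fall of the set. Hist2h2aa2, not a member, encodes the identical protein, and all of its transcript words also occur in Hist2h2aa1. It held 1 to 6 counts per library. Its mean level after OGD and after recovery was 0.113 and 0.182 CPM in WT and 0.0997 and 0.123 CPM in KO, with overlapping libraries. How reads were divided between these copies was not tested.

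Hist1h2ae (chr13:23570517-23571220, minus strand) encodes another H2A. WT-OGD libraries had 0.439, 0.413 and 0.603 CPM and KO-OGD libraries 0.402, 0.756 and 0.438 CPM. After recovery it was at 0.114, 0.183 and 0.0739 CPM in WT and 0.149, 0 and 0.321 in KO. Every recovery library lay under every OGD library. The log2 fold change was −1.89 ± 0.66 in WT and −1.56 ± 0.57 in KO, with edgeR adjusted p of 0.0232 and 0.0273. Recovery libraries held 0 to 6 counts of it, and DESeq2 did not make either call (adjusted p = 0.0541 in WT and 0.0519 in KO). With edgeR the WT call was also lost without WT-recovery replicate 1 (0.0565) or 3 (0.0980), and the KO call without KO-recovery replicate 1 (0.0922) or 2 (0.0742). Hist1h2ae met the count rule only through OGD libraries, so its values here are a description.

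Hist3h2a (chr11:58954685-58956830, plus strand) was the most counted H2A gene. WT libraries were at 14.1, 13.8 and 14.4 CPM after OGD and 12.8, 14.0 and 9.24 CPM after recovery, and KO libraries at 13.5, 12.4 and 13.2 CPM and then 11.5, 14.2 and 10.4 CPM. The groups overlapped. Its log2 fold change with recovery was −0.23 ± 0.14 in WT and −0.13 ± 0.14 in KO, and neither passed. Hist1h2ac, the fourth, went from 0.525 to 0.270 CPM in WT and from 0.353 to 0.647 CPM in KO, and neither difference passed. Summed over the class, H2A was at 17.0 CPM after OGD and 12.5 CPM after recovery in WT, and at 15.9 and 12.9 CPM in KO, with no overlap of libraries in either genotype. Hist2h2aa1 and Hist1h2ae, members only through OGD libraries, are in this sum, so part of its fall is built into their choice. Class sums were not tested.

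Among the H2B genes, Hist1h2bg (chr13:23571396-23572013, plus strand) fell in both genotypes. The WT-OGD libraries were at 7.17, 5.64 and 6.40 CPM and the WT-recovery libraries at 1.26, 1.10 and 1.70 CPM. The KO-OGD libraries were at 4.14, 5.72 and 4.02 CPM and the KO-recovery libraries at 1.74, 1.71 and 0.750 CPM. The highest recovery library was thus below the lowest OGD library. The log2 fold change was −2.24 ± 0.27 in WT and −1.74 ± 0.26 in KO (edgeR adjusted p = 5.75e-06 and 4.40e-05), and both calls held in all 19 alternatives. The identical protein is encoded by Hist1h2bc (chr13:23684199-23692908, plus strand). Its mean level in WT was 28.0 ± 1.18 CPM (SD, n = 3) after OGD and 23.6 ± 0.28 CPM after recovery, and in KO 28.5 ± 3.06 and 19.7 ± 6.54 CPM. Every recovery library of Hist1h2bc lay under the OGD libraries of its genotype.

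Hist1h2bc fell by 0.54 ± 0.18 on the log2 scale in KO (edgeR adjusted p = 0.0187). In WT its log2 fold change was −0.25 ± 0.18 (0.261), which passed in 4 of 19 alternatives: without KO-recovery replicate 3 (−0.25, adjusted p = 0.0208), without KO-recovery replicates 1 and 3 (0.0199), in the 6 WT libraries alone (0.0252) and with no low-count filter (0.0338). KO-recovery replicate 3 was at 12.2 CPM and replicates 1 and 2 at 22.8 and 24.1. With KO-recovery replicates 1 and 3 both left out, the KO log2 fold change was −0.26, on 1 KO-recovery library. The KO call was lost without KO-OGD replicate 2 (−0.45, edgeR adjusted p = 0.0784) and in the 6 KO libraries alone (0.0770).

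Hist1h2be, which also encodes this protein, rose in KO. The KO-OGD libraries were at 0.994, 1.64 and 1.34 CPM and the KO-recovery libraries at 2.97, 2.69 and 1.45 CPM. The groups overlapped through KO-recovery replicate 3. Its log2 fold change was 0.84 ± 0.29 in KO (edgeR adjusted p = 0.0206) and −0.16 ± 0.31 in WT (0.672). The KO call was lost without KO-recovery replicate 1 (0.142) or 2 (0.0636) or KO-OGD replicate 1 (0.0914). Hist1h2be overlaps Hist1h1e on the same strand, so its counts can include reads of that gene. The difference of these changes between genotypes, 1.01 ± 0.42, did not pass (adjusted p = 0.188), except without KO-recovery replicate 3 (0.0484).

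Hist2h2be, an H2B gene whose transcript ends with 2192 bases after the stop codon, was at 3.54, 2.92 and 3.62 CPM in the WT-OGD libraries and 1.83, 2.01 and 2.14 CPM in the WT-recovery libraries. These groups did not overlap. The log2 fold change in WT was −0.74 ± 0.29 (edgeR adjusted p = 0.0373). The call did not survive DESeq2 (0.0565), thinning to equal depth (0.127) or leaving out WT-recovery replicate 1, 2 or 3 or WT-OGD replicate 1 or 3 (0.0697 to 0.0927). In KO its log2 fold change was −0.28 ± 0.26, or −1.19 when KO-recovery replicates 1 and 3 were left out, on 1 KO-recovery library. Hist2h2be was at 3.02, 1.63 and 4.18 CPM in KO-recovery, within the range of the 3.01, 4.83 and 3.23 CPM of KO-OGD apart from replicate 2. The class sum of H2B went from 39.4 to 28.4 CPM in WT and from 38.1 to 26.4 CPM in KO, with no overlap in either genotype.

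Among the H3 genes every call was a rise. For Hist2h3c1 (chr3:96246685-96248509, plus strand) the WT-OGD libraries were at 3.29, 2.77 and 3.06 CPM and the WT-recovery libraries at 4.57, 4.64 and 5.55 CPM. The KO-OGD libraries were at 3.24, 1.84 and 3.50 CPM and the KO-recovery libraries at 5.80, 5.23 and 4.44 CPM. All 6 recovery libraries were above all 6 OGD libraries. It rose by 0.69 ± 0.22 in WT and 0.84 ± 0.21 in KO on the log2 scale (edgeR adjusted p = 0.0124 and 0.00314), and the WT call was lost without WT-recovery replicate 3 (0.0655). Hist1h3d was at 0.521, 0.394 and 0.465 CPM in the KO-OGD libraries and 1.09, 1.96 and 0.589 CPM in the KO-recovery libraries, which did not overlap. It rose by 1.32 ± 0.38 in KO (edgeR adjusted p = 0.00731), a call lost without KO-recovery replicate 2 (0.84, adjusted p = 0.0637). In WT the value was 0.59 ± 0.41 (0.230), from 0.514 to 0.760 CPM. Hist2h3c2, the last H3 member, went from 0.305 to 0.790 CPM in WT (1.26 ± 0.57, adjusted p = 0.0715) and from 0.460 to 0.678 in KO (0.43 ± 0.53). The WT difference passed in 3 of 18 alternatives: without KO-OGD replicate 2 (edgeR adjusted p = 0.0213), in the 6 WT libraries alone (0.0139) and with no low-count filter (0.0358). The summed H3 level was 3.86 ± 0.26 CPM after OGD and 6.47 ± 0.53 CPM after recovery in WT, and 3.78 ± 1.25 and 7.05 ± 1.43 CPM in KO, with no overlap within either genotype.

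Hist2h2aa1 and Hist2h3c1 are neighbours on the plus strand of chromosome 3, and both overlap the non-coding gene Gm20634 on that strand. Hist2h2aa1 also overlaps Gm20633, an antisense gene with 694 counts that holds all of its 50-base words. The counts of Hist2h2aa1 and Hist2h3c1 together were 97.8% of the counts of Gm20634. Neither histone gene holds a 50-base word that is not also in another annotated gene there. Hist2h2aa1 fell and Hist2h3c1 rose in both genotypes.

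The 5 H4 genes were low, with a summed level in WT of 2.54 ± 0.23 CPM after OGD and 2.01 ± 0.24 CPM after recovery and in KO of 2.10 ± 0.26 and 2.58 ± 1.01 CPM. Only Hist2h4 (chr3:96261682-96263311, minus strand) was called among the 4 tested. WT libraries held 7, 7 and 18 counts after OGD (0.171, 0.207 and 0.374 CPM) and 1, 5 and 5 after recovery (0.114, 0.305 and 0.370 CPM). KO libraries held 11, 5 and 10 counts after OGD (0.260, 0.164 and 0.273 CPM) and 24, 13 and 12 after recovery (1.19, 1.06 and 0.643 CPM). The 3 KO-recovery libraries were above the other 9. It rose with recovery in KO by 2.00 ± 0.41 on the log2 scale (edgeR adjusted p = 0.000710), a call kept in all 18 alternatives that could be fitted. In WT the change was 0.13 ± 0.54 (0.847). The difference between genotypes in this change was 1.87 ± 0.67 with adjusted p = 0.123, so it was not shown to differ. Hist1h4i, the H4 member with the highest level per length, was at 1.26 CPM after OGD and 1.13 CPM after recovery in WT and at 0.840 and 0.897 CPM in KO, with no call. Hist1h4k had 31 counts in WT after OGD and 3 after recovery (scaled ratio 0.308, 95% interval 0.0602 to 0.987) and 25 and 2 in KO (0.171, 0.0196 to 0.686), again with the count rule met only through OGD libraries.

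**Figure D2:**
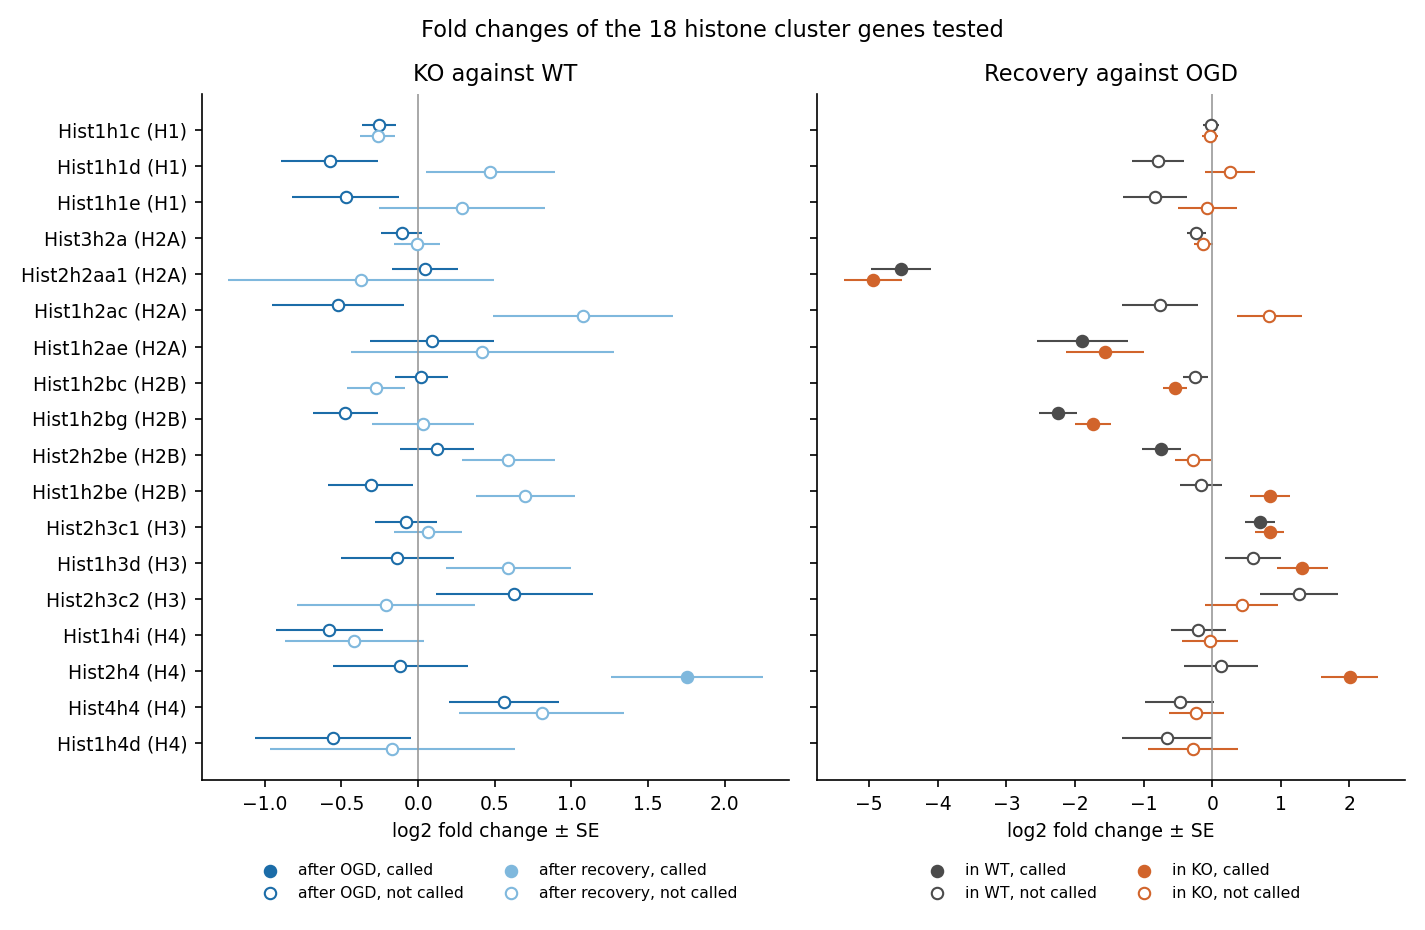
Log2 fold changes with SE of the 18 members tested, KO against WT on the left and recovery against OGD on the right, with filled points for genes called at adjusted p below 0.05. The right panel shows Hist2h2aa1, Hist1h2bg and Hist1h2ae on the far left in both genotypes, and the left panel shows 1 filled point, Hist2h4 after recovery at 1.75.

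Few of these genes passed the test between KO and WT. After OGD, 0 members were called higher and 0 lower by edgeR, where 0.966% and 6.52% of all genes tested were, or 7.49% in either direction. Without adjustment, 0 had p below 0.05 on the higher side and 2 on the lower side, and DESeq2 called 0 either way. The 2 were Hist1h1c (101 ± 3.21 CPM in WT, 84.5 ± 9.45 in KO, log2 fold change −0.25 ± 0.11, edgeR adjusted p = 0.239) and Hist1h2bg (6.40 ± 0.77 and 4.63 ± 0.95 CPM, −0.48 ± 0.21, 0.243). The summed level of all members was 163, 163 and 171 CPM in the WT-OGD libraries and 155, 139 and 144 CPM in the KO-OGD libraries. All 3 KO values were lower, on average by 0.18 on the log2 scale, and by 0.31 when CPM was taken on raw library totals.

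After recovery, Hist2h4 was the 1 member called higher in KO than in WT, where 10.1% of all genes were, and 0 were called lower, where 12% were (22.2% in either direction). Without adjustment 1 member, Hist1h1c, had p below 0.05 on the lower side, and DESeq2 called 0 lower. Hist2h4 was at 0.965 ± 0.29 CPM in KO-recovery and 0.263 ± 0.13 in WT-recovery. The log2 difference was 1.75 ± 0.49 (edgeR adjusted p = 0.0187), and the call was lost without WT-recovery replicate 1 (0.0570), without WT-recovery replicate 2 (0.0684) and without KO-recovery replicate 1 (0.0824). Without KO-recovery replicates 1 and 3 the log2 difference was 1.90, on 1 KO-recovery library. Hist1h1c was at 99.1 ± 7.39 CPM in WT-recovery and 82.8 ± 13.7 in KO-recovery (−0.26 ± 0.11, adjusted p = 0.111), and was called lower only when KO-recovery replicate 2 was left out (−0.36, adjusted p = 0.0437). Alternatives also made edgeR calls of higher levels in KO for Hist1h2be (without KO-recovery replicate 3, 0.0257, and at equal depth, 0.0436) and Hist2h2be (without KO-recovery replicate 2, 0.0427). For Hist1h3d the log2 difference was 1.34 without KO-recovery replicates 1 and 3, on 1 KO-recovery library. The summed level was 142, 159 and 149 CPM in the WT-recovery libraries and 142, 153 and 105 CPM in the KO-recovery libraries, which overlapped.

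No member passed the test of a difference between genotypes in the recovery change: 0 were called in either direction, against 2.89% and 2.36% of all genes (5.25% together) by edgeR, and DESeq2 called 0. At unadjusted p below 0.05 there were 3 in the direction of a higher change in KO (Hist2h4, Hist1h2be and Hist1h2ac, 1.60 ± 0.73) and 0 in the other. Without KO-recovery replicate 3, Hist1h2be and Hist1h1d were called.

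Among the 16 members with a stem-loop, the lowest fold changes with recovery were those of the genes whose annotated transcript stops soonest after it. Hist2h2aa1 has 35 annotated bases after it, Hist1h2ae 151 and Hist1h2bg 155, and these were the 3 shortest of the 16. Their log2 fold changes were the 3 lowest in both genotypes. Of the other 13, with 330 to 4884 bases, none was called lower in either genotype, and their log2 fold changes ran from −0.83 to 1.26 in WT and from −0.27 to 2.00 in KO. Over the 16 genes Spearman's rho between that length and the fold change was 0.21 in WT and 0.47 in KO, and over the 13 without the 3 shortest it was −0.48 and 0.02. The genes share libraries, and the pattern was noticed after the values were seen, so these are descriptions with no test. Hist2h2aa1 and Hist1h2ae are also members only through OGD libraries, so their falls do not support the pattern; Hist1h2bg had at least 10 counts in every library. Outside the 16, Hist1h1a and Hist1h4k, which have no annotated stem-loop, had the low count ratios given above. For Hist1h4k the annotation ends at the stop codon, so whether a stem-loop follows cannot be told from it. Members called lower with no stem-loop in the annotation, Hist1h2bc in KO and Hist2h2be in WT, fell by 0.54 and 0.74. Among the cluster genes that were not members, the 22 with a stem-loop within 100 bases of the annotated end summed to 1.12 ± 0.06 CPM after OGD and 0.788 ± 0.34 CPM after recovery in WT, and to 1.29 ± 0.34 and 0.729 ± 0.15 CPM in KO. Their libraries overlapped in WT (1.06 to 1.18 and 0.570 to 1.18 CPM) and not in KO. Among these 22 is Hist2h2aa2, with the same 35 bases after the stem-loop as Hist2h2aa1. At the low counts given above, its group means were not lower after recovery in either genotype. The 8 with more than 100 bases after the stem-loop summed to 0.667 and 0.820 CPM in WT and to 0.780 and 0.477 CPM in KO, and the 17 with none to 0.399 and 0.236 CPM in WT and to 0.494 and 0.385 CPM in KO. The libraries of these 17 did not overlap in WT and overlapped in KO, and those of the 8 overlapped in both genotypes. For nearly all of the 17, the annotation ends at most 2 bases after the stop codon and could not hold a stem-loop. They are thus not a class known to lack it. The labels name polyA RNA as the molecule and a kit for stranded total RNA, and which RNA ends were captured cannot be told from them.

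**Figure D3:**
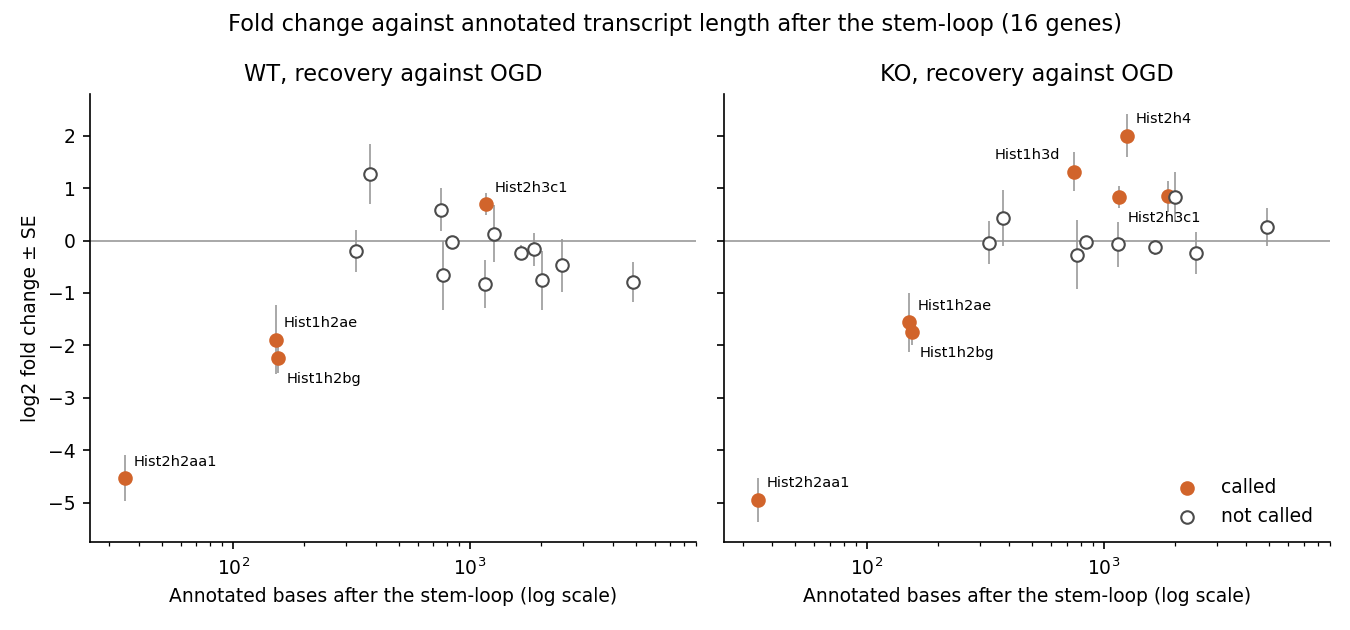
Log2 fold change with SE from OGD to recovery in WT (left) and KO (right) against the annotated bases after the stem-loop on a log scale, for the 16 members with a stem-loop. The 3 genes with 35, 151 and 155 bases lie below all others in both panels, and the remaining 13 show no such order.

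Hist1h2bg and Hist1h2ae are also neighbours. They start 175 bases apart on opposite strands, so a single stretch of DNA precedes both. It is printed because both genes fell in both genotypes, from RefSeq (GRCm38.p6), chr13:23571150-23571449 on the plus strand, read towards Hist1h2bg, with the octamer, CCAAT and TATA motifs in capitals.
Hist1h2bg promoter: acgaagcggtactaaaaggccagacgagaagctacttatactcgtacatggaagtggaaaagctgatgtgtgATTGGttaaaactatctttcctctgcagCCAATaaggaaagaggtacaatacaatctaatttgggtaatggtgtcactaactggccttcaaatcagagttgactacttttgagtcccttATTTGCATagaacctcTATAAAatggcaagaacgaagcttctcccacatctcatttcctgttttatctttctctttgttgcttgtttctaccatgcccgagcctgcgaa
The gene that fell furthest is shown for comparison, from chr3:96245247-96245546 on the plus strand, with the same motifs in capitals.
Hist2h2aa1 promoter: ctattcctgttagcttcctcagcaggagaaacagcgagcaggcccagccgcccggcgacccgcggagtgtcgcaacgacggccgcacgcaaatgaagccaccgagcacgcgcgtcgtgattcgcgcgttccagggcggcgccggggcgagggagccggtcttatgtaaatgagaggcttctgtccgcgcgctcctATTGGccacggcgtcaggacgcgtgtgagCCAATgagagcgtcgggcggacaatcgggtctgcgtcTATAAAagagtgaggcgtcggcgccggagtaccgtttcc

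Each window runs from 250 bases before to 50 bases after the annotated start, and motifs were searched on both strands without overlap between them. The octamer ATTTGCAT, known as the binding site of OCT1 in H2B promoters, was in 4 of the 17 members with a RefSeq promoter, all of them among the 6 H2A and H2B members matched, and in 1.74% of 32851 promoters. It was also in 9 of the 45 other cluster genes matched, so it does not mark the members. Hist1h2ac and Hist3h2a hold it too, and neither was called. Hist1h2bg and Hist1h2ae share 1 copy, as their windows overlap. CCAAT was in 14 of 17 members, 39 of the 45 other cluster genes and 37.4% of all promoters, and TATAAA in 11 of 17, 24 of 45 and 13.6%. Hist2h2aa1 does not hold the octamer letters in this window. The other facing H2A and H2B pair, Hist1h2ac and Hist1h2bc with 250 bases between their starts, had no call in WT, and in KO Hist1h2bc fell while the log2 fold change of Hist1h2ac was 0.83 ± 0.47 (adjusted p = 0.143).

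Within Hist3h2a, whose total was not called, a smaller share of the counts came from a short window ahead of the stem-loop after recovery. The annotation places Gm44313, a predicted miRNA gene of 138 bases on the opposite strand, at chr11:58954983-58955120, which begins 298 bases into Hist3h2a and ends 51 bases before its stem-loop. In the deposited table, a gene lying inside an exon of another never had more counts than that gene, in 277 of 277 same-strand pairs and in 180 of 180 opposite-strand pairs with at least 50 counts. In this table, counts of a gene are thus also held by a gene that contains it, on either strand, and the value of Gm44313 is used here as the part of Hist3h2a's counts that touches this window. The comparison was chosen after the values were seen.

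After OGD the window held 37.7%, 33.8% and 39.7% of the Hist3h2a counts in the WT libraries and 38.5%, 41.0% and 39.7% in the KO libraries. After recovery it held 16.1%, 20.5% and 16.8% in WT and between 13.8% and 16.1% in the 3 KO libraries. Every recovery library was below every OGD library. In CPM the window went from 5.22 ± 0.53 to 2.16 ± 0.66 in WT and from 5.18 ± 0.08 to 1.84 ± 0.38 in KO, while the rest of the gene was at 8.85 ± 0.23 and 9.84 ± 1.87 in WT and 7.87 ± 0.50 and 10.2 ± 1.62 in KO (SD, n = 3 each). The log2 ratio of window to rest was lower by 1.45 in WT and 1.87 in KO. As the window was picked on these values, no test is given. Leaving out each library in turn kept the difference between −1.58 and −1.36 in WT and between −1.92 and −1.79 in KO. For comparison, 197 annotated genes of any type that lie inside an exon of another gene outside the histone clusters were taken as windows. They were not matched to the Hist3h2a window in length, strand or place in the transcript. In 9.14% of them all 6 recovery libraries were below all 6 OGD libraries, and in 25.9% above. The median log2 difference was 0.32 in WT and 0.23 in KO.

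**Figure D4:**
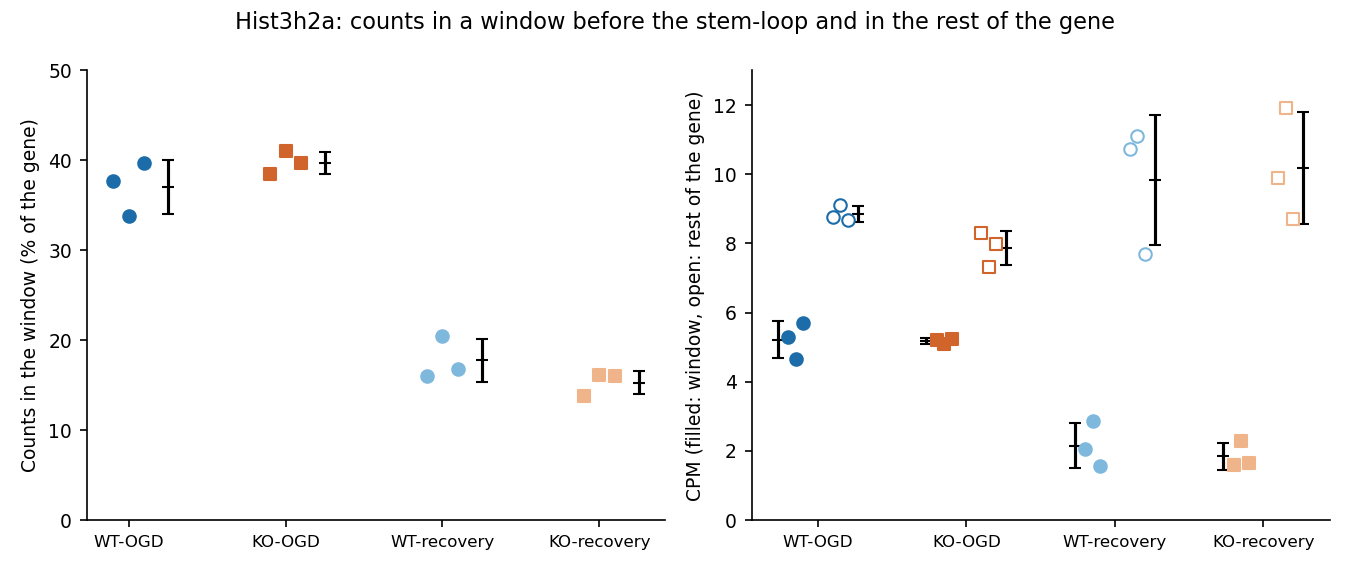
Left, percent of Hist3h2a counts that fall in the 138-base window ahead of the stem-loop, 1 point per library with group mean and SD in black. Right, CPM of the window (filled) and of the rest of the gene (open). The share lies between 33.8% and 41.0% in OGD libraries and between 13.8% and 20.5% in recovery libraries, whereas the rest of the gene is not lower after recovery by its group means.

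Equivalent windows lie in 3 more H2A members. In Hist2h2aa1 the window held 278 of 455 counts, in Hist1h2ae 27 of 131 and in Hist1h2ac 2 of 148. All 27 in Hist1h2ae came from OGD libraries, and recovery libraries of Hist2h2aa1 and Hist1h2ae held too few counts for a share. Hist3h2a also lies within the ubiquitin ligase gene Trim17, and its counts were 87.9% of those of Trim17.

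Most genes of DNA replication, the setting in which cluster histones are normally made, rose with recovery. Of 47 DNA replication and S phase genes, 33 rose and 1 fell in WT, and 45 rose and 1 fell in KO, read against the same background as above. Cdc6, which loads the replicative helicase, rose by 1.42 ± 0.22 in WT and 3.25 ± 0.24 in KO on the log2 scale (edgeR adjusted p = 6.39e-05 and 2.37e-08). Summed, these 47 were at 721 ± 36.2 CPM after OGD and 1090 ± 27.3 CPM after recovery in WT, and at 614 ± 16.2 and 1265 ± 19.3 CPM in KO. The 20 histone cluster genes summed to 166 ± 4.40 and 150 ± 8.34 CPM in WT and to 146 ± 8.39 and 133 ± 25.1 CPM in KO, so the mean was not higher after recovery in either genotype. That sum includes the 6 members that met the count rule through OGD libraries alone. Of 24 mitosis genes, 7 rose and 1 fell in WT, and 24 rose in KO. Birc5, the inhibitor of apoptosis survivin that also acts in chromosome segregation, rose by 1.15 ± 0.14 and 2.00 ± 0.15 (edgeR adjusted p = 7.87e-06 and 4.21e-08). The WT count of 7 became 12 when WT-OGD replicate 3 was left out, 11 when KO-OGD replicate 2 was, and 13 in the 6 libraries alone, and DESeq2 called 0 lower.

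After OGD, KO was lower than WT in 20 of the 47 replication genes and 22 of the 24 mitosis genes, and was called higher in 0 of either (for all genes, 6.52% lower and 0.966% higher; 1 and 0 at unadjusted p below 0.05 with edgeR, 1 and 0 called by DESeq2). Clspn, a checkpoint mediator at replication forks, had a log2 difference of −1.46 (5.52 CPM in WT and 2.00 CPM in KO, edgeR adjusted p = 0.000283), and the kinetochore gene Cenpf one of −1.70 (6.92 and 2.12 CPM, 0.000288). The count of 20 was 13 without WT-OGD replicate 3 or with libraries thinned to equal depth. In the same comparison all 11 astrocyte markers were lower in KO, with sums of 131 to 189 CPM in WT-OGD and 55.4 to 77.5 CPM in KO-OGD, none of them at 0 throughout. After recovery 7 of the 11 were lower in KO, with sums of 169 to 194 CPM in WT and 82.6 to 121 CPM in KO. Neuron markers were at 24.6 to 36.7 CPM in WT and 8.12 to 14.0 CPM in KO after OGD, and at 80.6 to 96.1 and 17.1 to 30.0 CPM after recovery, with 4 of 11 tested called lower in KO each time. The part of either list in this was not tested. After recovery 13 replication genes were higher in KO, 21 without KO-OGD replicate 2 and 8 without WT-recovery replicate 3. In KO 1 mitosis gene, Birc5, was lower, a call lost without WT-recovery replicate 1 and without KO-recovery replicate 1. The muscle and cartilage list had 8 of 16 tested genes higher in KO in that comparison, at 31.0 to 621 CPM in KO-recovery and 41.0 to 121 in WT-recovery. Over all genes tested, 10.1% were higher and 12% lower in KO after recovery.

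Histone chaperones, which carry new histones to DNA, were mixed. Of 20, 3 rose and 6 fell in WT and 8 rose and 5 fell in KO. Over all genes tested, 26.9% rose and 29.9% fell in WT, and 29.3% rose and 29.6% fell in KO. Asf1b, a chaperone of new H3 and H4, rose by 1.35 ± 0.11 and 2.37 ± 0.11 on the log2 scale (edgeR adjusted p = 6.45e-08 and 2.51e-10), and Chaf1b, a subunit of the chromatin assembly factor CAF-1, rose by 0.99 ± 0.14 in KO. After recovery 5 chaperones were higher in KO and 0 lower, against 10.1% and 12% of all genes (9 and 1 at unadjusted p below 0.05 with edgeR, 0 called lower by DESeq2). The 5 became 1 without WT-recovery replicate 2, while the 0 became 3 without KO-recovery replicate 3 and 1 without WT-recovery replicate 1. After OGD 2 were lower, against 6.52% of all genes, and 1 was lower with any of the 6 OGD libraries left out.

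Of 11 replication-independent histone genes, whose mRNA is polyadenylated, 4 rose and 3 fell in WT and 3 rose and 5 fell in KO. H2afj fell from 17.8 to 6.06 CPM in WT and from 22.8 to 6.09 in KO (−1.59 ± 0.16 and −1.92 ± 0.16, edgeR adjusted p = 1.06e-06 and 7.96e-08), and H2afy2, a macroH2A gene, rose by 0.80 ± 0.20 and 1.10 ± 0.20. After recovery H2afz, which encodes H2A.Z, was at 33.3 CPM in WT and 19.6 in KO (−0.76 ± 0.16, adjusted p = 0.00433), 1 of 3 in this list lower in KO, with H2afv and H3f3a. After OGD the centromeric H3 gene Cenpa was the 1 lower in KO (9.91 CPM against 14.7 CPM in WT, edgeR adjusted p = 0.00133), a call lost at equal depth. Over all genes tested, 12% were lower in KO after recovery and 6.52% after OGD.

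Of the 22 tested genes of histone mRNA transcription and processing, 4 rose and 9 fell in WT and 7 rose and 8 fell in KO. The KO count of 8 was 5 without KO-OGD replicate 2 and 4 without KO-recovery replicate 1 or 2. Of all genes tested, 26.9% rose and 29.9% fell in WT, and 29.3% rose and 29.6% fell in KO. Mblac1, which encodes a nuclease implicated in cutting histone pre-mRNA, fell from 2.98 to 1.22 CPM in WT and from 3.07 to 1.11 CPM in KO (edgeR adjusted p = 0.000595 and 0.000148). Between genotypes, none of the 22 was called after OGD (1 higher and 2 lower at unadjusted p below 0.05 with edgeR, 0 called by DESeq2). After recovery Srrt and Ncbp1, which act with the cap-binding complex, differed by 0.35 ± 0.11 and −0.35 ± 0.09 (edgeR adjusted p = 0.0276 and 0.0130), and neither call was made in the 6 recovery libraries alone. Over all genes tested, 7.49% were called in either direction after OGD and 22.2% after recovery. Of 12 cell cycle inhibitors, 0 rose and 3 fell in WT (3 on the higher side at unadjusted p below 0.05 with edgeR, 2 called by DESeq2), and 5 rose and 4 fell in KO. Cdkn1c, the inhibitor p57, went from 21.5 to 0.325 CPM in WT and from 28.6 to 1.57 in KO.

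**Figure D5:**
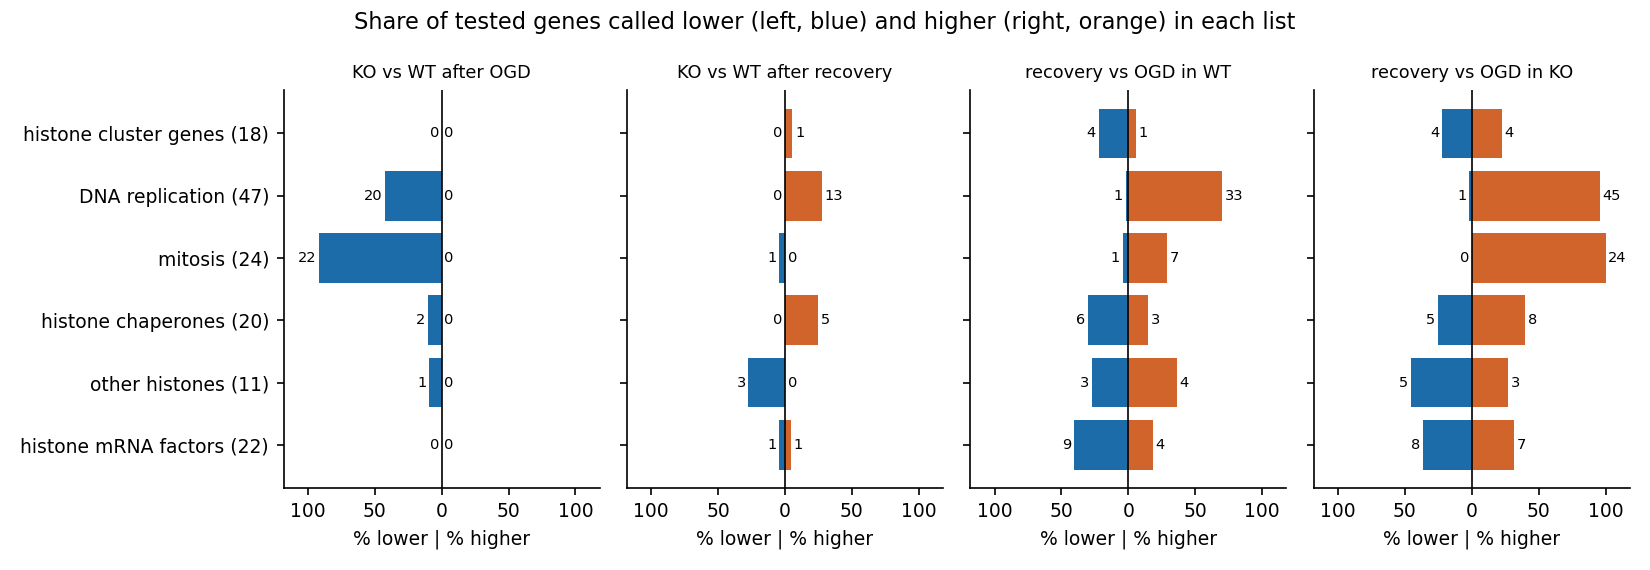
Percent of tested genes in each list called lower (left, blue) and higher (right, orange) by edgeR at adjusted p below 0.05 in 4 comparisons, with the number of genes tested in brackets and the counts beside the bars. DNA replication and mitosis bars reach 45 of 47 and 24 of 24 higher in KO recovery, whereas the histone cluster genes show 4 of 18 each way.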

How the data were processed

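Gene-level RNA-seq counts from 12 libraries of sorted mouse microglia were analysed. The deposited values are counts of reads per gene made by the authors, whole numbers without normalization. HISAT2, featureCounts and the GRCm38 build are named per the submitters' processing notes. Tool versions, annotation release and options for counting are not given in the sources used here. Of 55421 identifiers, 55240 matched GENCODE M21 without the version number (54673 with it), and stem-loops, word sharing and translations come from its transcripts.

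With edgeR 4.0.16 in R 4.3.3, filterByExpr left 18842 genes, and libraries were scaled by TMM. A robust quasi-likelihood model with 1 mean per group was fitted to all 12 libraries, tested by glmQLFTest and adjusted by Benjamini-Hochberg over all genes tested. A call is an adjusted p below 0.05, an SE is the log2 fold change over the root of F, and CPM uses TMM-adjusted library sizes, as mean ± SD of 3. The pipeline was tested on simulated data. Replicate pairs differed by a chi-square per degree of freedom of 6.66 to 60.2 over genes with at least 20 counts. The highest values were for pairs with WT-recovery replicate 1 (60.2 and 50.7) or KO-recovery replicate 3 (56.7 and 44.7). Each library counted as 1 sample, although this spread does not show that libraries were separate animals or cultures. Count ratios with under 4 counts in a group carry exact binomial intervals. Intervals cover counting error only, and shallower recovery libraries give low genes wider error. The window values were computed in Python 3.11.15.

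Alternatives were DESeq2 1.42.0, its size factors in edgeR, no low-count filter, the 6 libraries compared, a replicate block, equal depth, members with at least 50% unique words or 10 counts in all libraries, and leaving out libraries. The members and gene lists were chosen with earlier results of these data known. Named members are the 3 highest per length in each class, all of H1, the 5 strongest calls per contrast and direction with non-overlapping groups, those next to the threshold, and the 3 strongest calls per list; other names were chosen after their values were seen.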

Additional observations from a re-analysis of the deposited data

How the results depend on the processing

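Of 1593 values of members under an alternative, 1548 kept their side of the threshold, 19 gained a call, 26 lost it and 0 calls reversed direction. Values with no call could change sign. For example, the log2 fold change of Hist1h4i with recovery in KO ran from −0.80 to 0.99 over the alternatives. Leaving out libraries in turn, the members called ranged from 0 to 2 higher and 0 to 1 lower for KO against WT after recovery, 0 to 2 higher and 2 to 6 lower for recovery in WT, 2 to 4 higher and 2 to 5 lower for recovery in KO, and 0 to 2 higher and 0 to 0 lower for the interaction; after OGD KO against WT stayed at 0. The 2 for the interaction came without KO-recovery replicate 3. Of counts that moved by over 1.5 times, KO against WT after recovery gave 0 higher in the 6 libraries alone and among the 7 members with 10 counts in every library. Recovery in WT gave 2 higher with no low-count filter and in the 6 libraries alone and 0 among members with mostly unique words, and 2 lower with DESeq2, at equal depth and among the 7 well counted members. Recovery in KO gave 2 higher at equal depth, and 2 lower in the 6 libraries alone, and 2 of each among the 7. The smaller sets hold fewer genes or samples; otherwise the cause was not tested. Same-numbered libraries of different groups did not deviate together (r from −0.23 to 0.16, and 2 of 12 libraries correlated best with their own number), so the numbers were not taken as pairs. With the replicate block, the call for Hist2h2be in WT was lost (adjusted p = 0.0516) and no other member call changed. Depth limits what can be said of the 6 members with at most 7 counts in any recovery library.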
